A study of Mus musculus with 15 samples.

Results

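Smooth muscle contractile genes were followed in libraries of epithelium from the mouse uterus. The set holds 33 genes of 28269 genes listed in the deposited tables. They were chosen by name, with earlier results of these data known. They encode the contractile actins and myosin subunits, the proteins that regulate the thin filament, and intermediate filament and dense body proteins. Others encode proteins of the cell cortex and of adhesion sites, proteins that govern muscle differentiation, and proteins of the internal calcium store. Of the 33, 22 were listed for wild type, 25 for the genotype labelled E-OEX and 32, every member except Itga8, for the genotype labelled U-OEx. The wild-type and E-OEX tables had 20 members in common, all 3 sets of tables had 19, and Tpm1, Ldb3, Pdlim7, Actn1, Flna and Vcl were in the U-OEx tables only, which makes 6.

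RNA was sequenced at day 4 from the sheet of cells facing the lumen of the uterus (luminal epithelium, LE) and from its glands (glandular epithelium, GE). Each of 5 groups had 3 libraries: wild-type LE and GE, E-OEX LE and GE, and U-OEx LE. The genotype label of both E-OEX and U-OEx is overexpression of Notch1, a cell surface receptor. What the abbreviations E-OEX and U-OEx stand for, which promoter drives Notch1, the age of the mice and whether the 3 libraries of a group came from separate mice are not given in the sources used here. The p-values below therefore measure the spread between libraries, which may be partly technical.

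A deposited value is a read count divided by 1 factor per library, called a scaled read count here. Listed genes numbered 6414 for wild type, with 3818041 to 4797424 reads per library, 4903 for E-OEX, with 1980800 to 3494859 reads, and 27946 for U-OEx, with 13541644 to 14981505 reads. The first 2 sets hold genes whose GE and LE means lay about 2-fold or more apart, so a member outside them was not analysed there. Notch1 was listed in the U-OEx tables only (2913, 3524 and 2789), so overexpression could not be checked against wild type. The genes of these label checks were chosen after their values were seen. The Notch target Hey1 stood at 31.1, 105 and 163 in wild-type LE and at 1104, 1832 and 1140 in E-OEX LE. Foxa2, a marker of uterine glands, stood at 2227 to 2584 in wild-type GE and 4.10 to 14.5 in wild-type LE, but at 426, 41.8 and 52.9 in E-OEX LE and at 677, 471 and 441 in U-OEx LE. Wnt7a, a luminal marker, stood at 2958 to 5006 in wild-type LE and 3.79 to 9.52 in wild-type GE. Epithelial markers, 7 of which were listed for wild type, summed to 95393 to 103668 in LE and 30207 to 31806 in GE. Both GE groups also carried other cell types' markers. The summed scaled read count of 14 stromal fibroblast markers was 47964 to 135945 in wild-type GE and 116155 to 127337 in E-OEX GE, against 622 to 11142 in wild-type LE. In bulk RNA, fewer cells of a type and less RNA per cell cannot be told apart.

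Smooth muscle contracts when calcium activates myosin light chain kinase, which phosphorylates the regulatory light chain and lets myosin pull on actin filaments. Calponin, caldesmon and tropomyosin tune that interaction, and dense bodies and adhesion plaques carry the force to the membrane. In the uterus these genes are best known from the myometrium, the muscle wall outside the stroma, and from the muscle coat of blood vessels. Many of them are transcribed by serum response factor, which binds a DNA motif called the CArG box, together with its partner myocardin.

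The promoter sequences are shown because that motif is what these genes are best known to have in common. RefSeq promoter windows of 300 bases (250 before and 50 after the annotated start, GRCm38.p6) were found for 27 of the 33 members, and not for Actg2, Myh11, Tagln, Nexn, Dtna and Myocd. An exact CArG box, searched on both strands, lay in the windows of Myl9, Ldb3 and Vcl, 3 of 27 members, against 1.81% of the 27025 genes in the table. When 1 C or G was allowed in the core, 7 of 27 members had a match (Acta2, Myl9, Synm, Ldb3, Pdlim3, Vcl and Jph2), against 11.3% of all genes. The motif GTGGGAA on either strand, recognised by the Notch partner RBPJ, lay in the windows of Csrp1 and Actn1, 2 of 27 against 7.25%. Stretches of 200 bases on the gene's strand, from 250 to 51 bases before the start, follow for some of these members. They are 3 that were higher in E-OEX GE and Synm, which was not. Acta2, also higher in E-OEX GE, has a match at -84 and is not printed. Capitals mark CArG matches with at most 1 C or G in the core. Myl9 is at chr2:156775214-156775413 (plus strand), Pdlim3 at chr8:45885237-45885436 (plus), Jph2, by 1 of its annotated starts, at chr2:163398044-163398243 (minus) and Synm at chr7:67759793-67759992 (minus), all upstream of the annotated exons.
Myl9: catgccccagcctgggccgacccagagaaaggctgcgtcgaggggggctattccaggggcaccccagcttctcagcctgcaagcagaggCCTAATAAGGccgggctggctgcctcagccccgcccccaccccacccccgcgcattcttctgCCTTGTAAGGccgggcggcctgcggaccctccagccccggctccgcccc
Pdlim3: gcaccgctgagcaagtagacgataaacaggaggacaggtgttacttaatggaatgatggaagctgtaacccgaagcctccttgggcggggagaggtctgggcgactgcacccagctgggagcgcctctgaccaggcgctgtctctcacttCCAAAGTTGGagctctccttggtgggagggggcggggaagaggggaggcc
Jph2: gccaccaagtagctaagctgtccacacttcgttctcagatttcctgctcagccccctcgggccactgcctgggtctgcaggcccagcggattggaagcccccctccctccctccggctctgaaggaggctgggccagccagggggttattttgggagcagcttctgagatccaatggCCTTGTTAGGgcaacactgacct
Synm: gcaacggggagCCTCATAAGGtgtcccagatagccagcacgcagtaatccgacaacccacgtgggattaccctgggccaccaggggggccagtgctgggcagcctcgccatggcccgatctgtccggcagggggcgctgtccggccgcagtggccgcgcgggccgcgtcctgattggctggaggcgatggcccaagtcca
Myl9 has 2 matches in this stretch, at -161 and -99 from its start, and the others have 1 each. A match describes the letters only and is no evidence that the factor binds there.

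Contractile gene RNA was more abundant in the E-OEX GE libraries than in those of wild type. Of the 20 members tested, 16 rose and 0 fell at an adjusted p of 0.05, while 23.5% of the 2851 genes tested were called, 9.72% higher and 13.8% lower. Genes had been listed for their difference between GE and LE, which the GE libraries compared here helped to set. All 20 members were listed as higher in GE in both genotypes, whereas the 2851 genes also include genes lower in GE. The values given for all genes are therefore not a matched background. The actins, myosin subunits, calponin, tropomyosin, myocardin and junctophilin were among those that rose, and desmin, synemin, Mustn1 and phospholamban did not pass. Fitted log2 fold changes of the 16 ran from 0.79 (Cald1) to 1.89 (Lmod1), and the median of all 20 members was 1.34 against 0.05 for all genes. The 3 E-OEX values lay above all 3 wild-type values for the same 16 members, and the E-OEX libraries were the higher, without overlap, for 18.6% of all genes. The fit rescaled the recovered reads of the shared genes, because the deposited tables appear to have been scaled separately. On the deposited scale the median of all genes was 0.50, 17 members rose, and 71.6% of all calls were higher instead of 41.3%. The count was most sensitive to 1 library: without wild-type GE replicate 1, 9 members rose. That library had the lowest value of its group for 18 of 21 members. Its sum of stromal markers was the middle one of 3 (68934, against 135945 and 47964). Its pericyte sum was the lowest (3332, against 3864 and 4770) and its endothelial sum the middle one (4649, against 3808 and 6538).

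**Figure D1:**
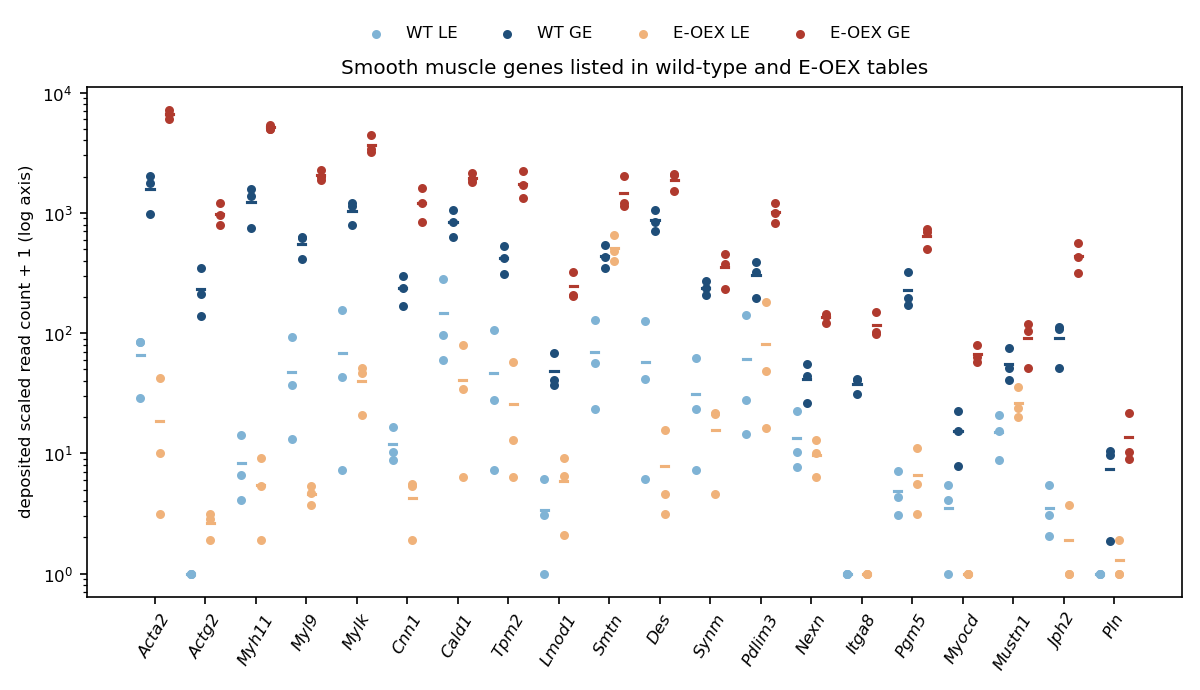
Scaled read counts plus 1 (log axis) of the 20 members listed in both the wild-type and the E-OEX tables, with a point for each of 3 libraries per group and a bar at the mean. E-OEX GE lies highest for most members. Values in E-OEX LE overlap wild-type GE for Smtn (394 to 653 against 347 to 536) and, at about 1 read, for Pln, and LE values of Pdlim3, Mustn1 and Nexn come close to wild-type GE.

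The actin and myosin group rose in every member tested, 5 of 5. Acta2 (chr19:34241090-34255590), the smooth muscle alpha actin, had scaled read counts of 976, 1778 and 2017 in wild-type GE and 7204, 6634 and 6020.05 in E-OEX GE. Myh11 (chr16:14194535-14291372), the smooth muscle myosin heavy chain and the most specific marker of the group, stood at 752, 1374 and 1571 in wild-type GE and 5428, 5001 and 4984 in E-OEX GE. In both genes the lowest E-OEX library was far above the highest wild-type library. The log2 fold changes were 1.65 ± 0.30 (SE, adjusted p = 0.0037) for Acta2 and 1.66 ± 0.29 (adjusted p = 0.00333) for Myh11. Actg2, the gamma actin of visceral smooth muscle, stood at 138, 346 and 209 against 1207, 953 and 798, a log2 fold change of 1.71 ± 0.35 (adjusted p = 0.00713). Myl9, the regulatory light chain whose promoter is printed above, stood at 412, 620 and 628 against 2269, 2003 and 1871 (1.44 ± 0.26, adjusted p = 0.00358). The kinase that phosphorylates it, Mylk, stood at 784, 1210.44 and 1132 against 4426, 3221 and 3374 (1.36 ± 0.26, adjusted p = 0.00519). Groups did not overlap for any of these 5 genes. The sixth member, the myosin phosphatase subunit Ppp1r12b, was listed for E-OEX and not for wild type, so it was not compared here.

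The thin filament regulators also rose in 5 of the 5 members tested. Cnn1 (chr9:22099216-22109630), the calponin of differentiated smooth muscle, stood at 167, 299 and 238 in wild-type GE and 1600.38, 1211 and 831 in E-OEX GE. It rose by 1.89 ± 0.34 on the log2 scale (adjusted p = 0.00381). Lmod1, a leiomodin that starts actin filaments, stood at 36.0, 39.8 and 67.5 against 322, 203 and 207 (1.89 ± 0.37, adjusted p = 0.00527). These were the largest changes among the members. Tpm2, the beta tropomyosin that lies along actin, stood at 309, 532 and 423 against 2207, 1715 and 1331 (1.59 ± 0.31, adjusted p = 0.005). Smtn, a smoothelin bound to actin filaments, stood at 347, 536 and 431 against 2041, 1144 and 1215 (1.25 ± 0.31, adjusted p = 0.0182). Cald1, caldesmon, stood at 626, 1055 and 833 against 1902, 1819 and 2164. Its change was the smallest of the 16 at 0.79 ± 0.24 (adjusted p = 0.0385), and its call was lost when wild-type GE replicate 1 or 3 or E-OEX GE replicate 2 or 3 was left out, and under the replicate block (adjusted p = 0.0559). Smtn lost its call without wild-type GE replicate 1 (adjusted p = 0.0721) or 3 (adjusted p = 0.0524). Some 16.3% of the exon bases of Smtn overlap genes on the other strand; use of strand in counting is not given in the sources used here, so reads from both strands cannot be told apart.

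Intermediate filament and dense body genes were split, with 2 of 4 tested members called. Pdlim3, a PDZ and LIM protein that binds alpha-actinin, rose from 195, 386 and 324 in wild-type GE to 1213, 999 and 821 in E-OEX GE (log2 fold change 1.32 ± 0.32, adjusted p = 0.0153). Nexn, the actin-binding protein nexilin, rose from 25.3, 54.0 and 43.3 to 120.2, 139 and 142 (1.29 ± 0.34, adjusted p = 0.022). Both lost the call without wild-type GE replicate 1, and Nexn also without wild-type GE replicate 3 or E-OEX GE replicate 2 or 3. The intermediate filament proteins did not pass. Des, desmin, stood at 699.7, 1053 and 844 against 2057, 2104 and 1517 as deposited, and its fitted change was 0.67 (95% interval 0.07 to 1.26, adjusted p = 0.103). Synm, synemin, which joins desmin filaments to adhesion sites, stood at 206, 237 and 269.9 against 231, 377 and 452, with a fitted change of 0.06 (interval -0.56 to 0.68). The deposited values of Des do not overlap, but after rescaling they do. Des passed on the deposited scale (1.13, adjusted p = 0.00968), with quantile scaling (0.95, adjusted p = 0.0248) and without E-OEX GE replicate 3 (0.90, adjusted p = 0.0448).

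Both adhesion genes tested rose. Itga8, the integrin alpha 8 chain, which binds matrix, stood at 30.2, 39.8 and 40.7 in wild-type GE and 98.1, 101 and 149.9 in E-OEX GE (log2 fold change 1.16 ± 0.31, adjusted p = 0.0226). Pgm5, a phosphoglucomutase relative found at adhesion plaques, stood at 196, 169.7 and 323 against 686, 500.1 and 735 (1.05 ± 0.31, adjusted p = 0.0361). Itga8 lost the call without wild-type GE replicate 1 or 3 or E-OEX GE replicate 3, and Pgm5 without wild-type GE replicate 1 or 2 or E-OEX GE replicate 1 or 3.

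Myocd (chr11:65176561-65269989), the coactivator myocardin, was low in wild-type GE at 6.81, 14.2 and 21.6 and stood at 78.1, 56.3 and 61.8 in E-OEX GE. It rose by 1.80 ± 0.46 (adjusted p = 0.0198), a call that was lost without wild-type GE replicate 1 (1.51, adjusted p = 0.0657). Mustn1, a small nuclear protein of developing muscle, stood at 39.9, 50.2 and 74.4 against 50.1, 102 and 118. Its fitted change was 0.21 (interval -0.66 to 1.07), and the groups overlapped. Of the calcium store genes, Jph2, the junctophilin that ties the store to the membrane, rose from 50.6, 108 and 112 to 563, 431 and 314 (1.84 ± 0.39, adjusted p = 0.00799). Pln, phospholamban, which restrains the calcium pump, held few reads at 8.76, 9.48 and 0.87 against 8.01, 9.20 and 20.6. Its fitted change of 0.74 had an interval of -0.90 to 2.38, so no change was detectable at this depth, and 64.7% of its exon bases are shared with genes on the other strand.

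Fitted changes of 1.25 to 1.89 came from every role except the adhesion genes, and of the 16 called members Cald1, Itga8 and Pgm5 lay below that range. Every one of the 12 alternative fits kept the call for Acta2, Actg2, Myh11, Myl9, Mylk, Cnn1, Tpm2, Lmod1 and Jph2, which are 9 members, and the 7 others lost it in at least 1 fit.

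**Figure D2:**
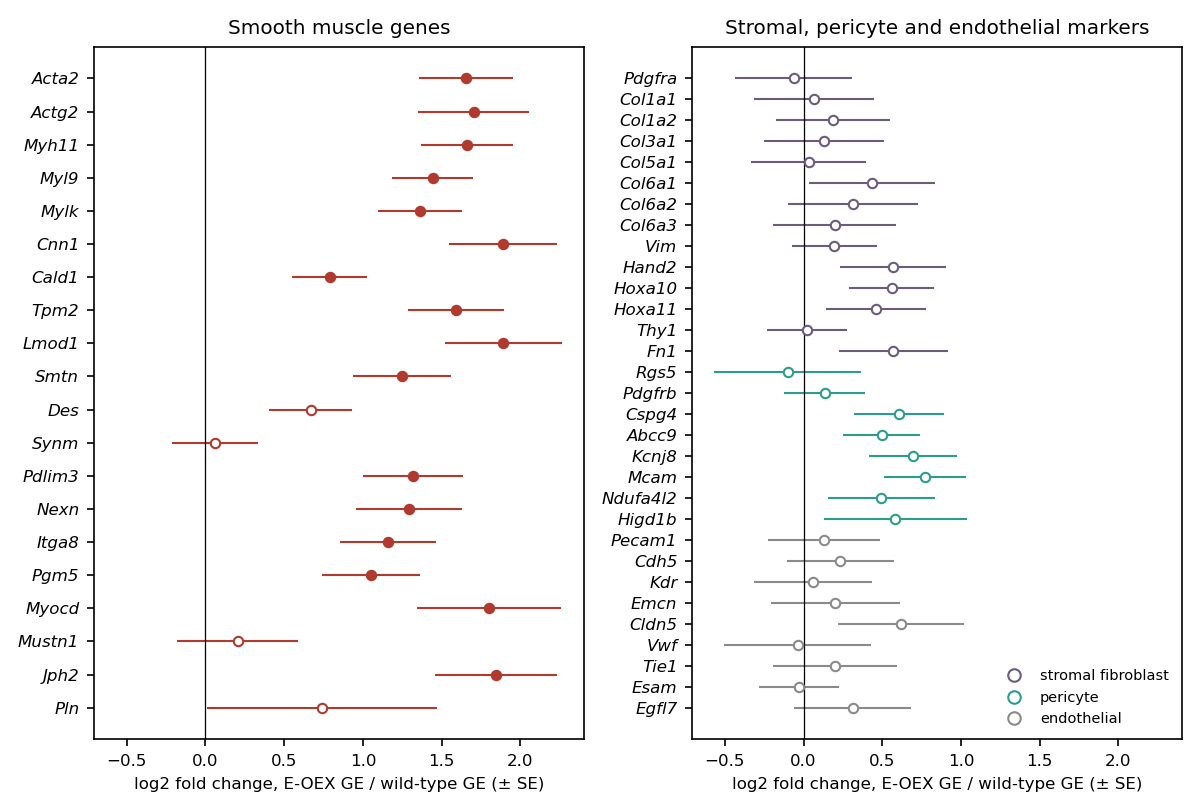
Log2 fold change between E-OEX GE and wild-type GE (point) with its standard error (bar), for the 20 members at left and for stromal, pericyte and endothelial markers at right; filled points passed an adjusted p of 0.05. The 16 filled members lie between 0.79 and 1.89, and no marker point at right is filled.

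Markers of other cell types that accompany muscle and vessels were read in the same fit. By limma, 0 of 14 stromal fibroblast markers, 0 of 8 pericyte markers and 0 of 9 endothelial markers passed, with 0, 2 and 0 of them at an unadjusted p under 0.05, and edgeR's quasi-likelihood test on the recovered reads also called 0 in each list. Their median log2 fold changes were 0.20, 0.54 and 0.20, and 13 of 14, 7 of 8 and 7 of 9 were above 0. On the deposited scale, 2 stromal and 4 pericyte markers were higher and 0 endothelial. Pericytes, the cells wrapped around small vessels, also transcribe several contractile genes. Summed scaled read counts of the 20 members were 6007, 9912 and 9601 in wild-type GE replicates 1 to 3 and 33711, 28724 and 27127 in E-OEX GE. The 8 pericyte markers summed to 3332, 3864 and 4770 in wild-type GE and to 3678, 7541 and 9848 in E-OEX GE. Replicate 1 of E-OEX GE had the highest member sum and the lowest pericyte sum of its group. Replicate 1 of wild-type GE had the lowest of its group for both sums. The 9 endothelial markers summed to 4649, 3808 and 6538 against 4825, 6896 and 13246. No defining marker of these lists was at 0 in all 3 libraries of a GE group. The part of other cell types in the members' rise was not tested.

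**Figure D3:**
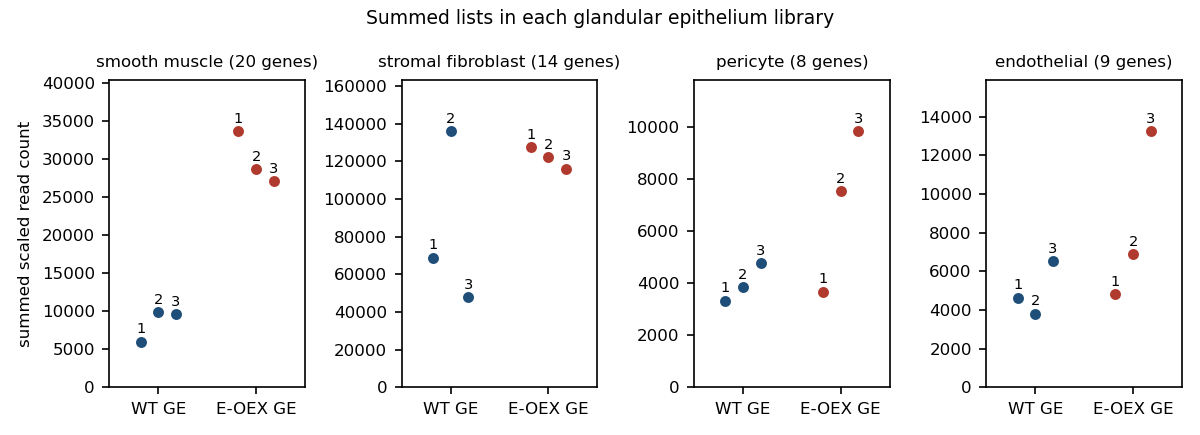
Summed scaled read count of 4 gene lists in each GE library, with replicate numbers beside the points. The member sums of E-OEX GE (27127 to 33711) lie above all wild-type sums (6007 to 9912), whereas the stromal sums overlap and the pericyte and endothelial sums are highest in E-OEX GE replicate 3.

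Of 55 further smooth muscle genes, 25 were listed for both genotypes, and 5 rose and 4 fell in E-OEX GE against wild-type GE, with a median of 0.63. Of all 2851 genes tested, 9.72% were called higher and 13.8% lower. The genes that fell are a channel, receptors and a kinase. Kcnma1, the large-conductance calcium-activated potassium channel, fell by 2.87 ± 0.29 on the log2 scale (adjusted p = 0.000159). Agtr1a, an angiotensin receptor, fell by 2.66 (adjusted p = 0.00047), and Chrm3, a muscarinic receptor, fell by 2.57 (adjusted p = 0.000195). Ppp1r14a, an inhibitor of myosin phosphatase, rose by 1.54 ± 0.29 (adjusted p = 0.00458). The remaining calls, named after their values were seen, were Ptgfr, Fhl2, Mrvi1 and Tgfb1i1 higher (1.50, 1.31, 0.99 and 0.90) and Prkg1 lower (-1.54). Of 9 striated muscle genes, 2 were tested: Acta1, an actin, rose by 2.24 (adjusted p = 0.00217) and Actn2, an alpha-actinin, fell by 2.10 (adjusted p = 0.00933).

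Contractile genes were higher in GE than in LE of both genotypes, which is described without weight because the tables hold genes picked for that difference. In wild type, 21 members were higher and Cnn3 lower in GE, 22 of 22 called where 97% of all listed genes were called, 56.6% higher and 40.5% lower. In E-OEX, 25 of 25 were higher where 91.6% of listed genes were called, 61.5% higher and 30.1% lower. Median log2 differences were 3.91 for members and 1.36 for all listed genes in wild type, and 6.04 and 1.75 in E-OEX. As a ratio of deposited means, GE exceeded LE 168-fold for Myh11 and 24.5-fold for Acta2 in wild type, and 1147-fold and 379.5-fold in E-OEX. Actg2 had no read in the 3 wild-type LE libraries, so its GE level was at least 72.7-fold higher, taking 3 reads per library as the floor. Of the 20 members in both sets, 18 had the larger fitted difference in E-OEX, and Mustn1 and Smtn did not. Cnn3 (chr3:121426497-121458207), the calponin of non-muscle cells, ran the other way, with 20306, 35600 and 33778 in wild-type LE and 8517, 7114 and 7849 in GE. Reads of Cnn3 are less certain than those of the others, since 16.4% of its 50-base stretches also occur in Gm4815 or Gm17936 and 17.7% of its exon bases overlap Gm42928 on the other strand.

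Within E-OEX GE the members spanned a wide range of levels. Per kilobase of exon, Csrp1 (3428 ± 1289, SD, n = 3) and Acta2 (3014 ± 269.6) stood highest and did not differ beyond their spread, followed by Myl9 (1762 ± 175) and Myh11 (676 ± 33.1). Csrp1 is a LIM protein of dense bodies that many other cells also express. Tagln, the calponin relative transgelin and commonly among the most abundant smooth muscle transcripts, had values of 12.02, 17.2 and 23.4 in E-OEX GE and 1.83, 8.17 and 2.16 in E-OEX LE. Some 67.9% of its exon bases are shared with Pcsk7 or Gm48529 on the other strand, so its low value is uncertain. Across the 12 wild-type and E-OEX libraries, Pearson's r with Myh11 on log2 values ran from 0.64 (Smtn) to 0.99 (Itga8), a description over points that share libraries and the GE to LE difference.

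The genotype difference was larger in GE than in LE for some members. The interaction of genotype and epithelium was called positive for 6 of 20 members (Acta2, Myh11, Myl9, Cnn1, Myocd and Jph2) and called negative for 0. Called or not, it was above 0 for 18 members and below 0 for 2. Of 2933 genes 10.7% were called, 5.83% positive and 4.91% negative. These genes too had been listed for their difference between GE and LE. The median interaction was 1.96 for members, 1.66 for stromal, 2.27 for pericyte and 1.78 for endothelial markers, and 0.33 for all genes. In each marker list 1 gene was called, and the part of those cell types in the members' interaction was not tested. Myl9 had the largest value, 4.89 ± 0.80 (adjusted p = 0.00227), and its values of 36.3, 91.2 and 12.3 in wild-type LE and 3.65, 2.72 and 4.32 in E-OEX LE ran against those in GE. Acta2 followed at 4.54 ± 1.04 (adjusted p = 0.0149). Pseudocount mattered, since 3 members passed with 0.1 in place of 1, and without wild-type GE replicate 1 also 3 passed.

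In LE, 1 member rose and 1 fell in E-OEX against wild type. The 17 members tested thus had 2 calls, against 10.7% of 2600 genes, 5.12% higher and 5.54% lower. Genes had been listed for their difference between GE and LE, which the LE libraries compared here helped to set. All 17 members were listed as lower in LE in both genotypes, whereas the 2600 genes also include genes higher in LE. The shares of all genes are therefore not a matched background. Smtn stood at 54.9, 127 and 22.4 in wild-type LE and 477, 653 and 394 in E-OEX LE. It rose by 3.01 ± 0.63 on the log2 scale (adjusted p = 0.0183), and the groups did not overlap. Myl9 fell by 3.13 ± 0.80 (adjusted p = 0.0356). Neither call was stable to leaving out a library: Smtn was lost without wild-type LE replicate 3 (adjusted p = 0.0873) or E-OEX LE replicate 1 (0.0661) or 2 (0.0837), and Myl9 without any single library of the 6, at adjusted p from 0.0565 to 0.125. Des stood at 5.18, 125 and 40.2 against 14.6, 3.63 and 2.16, and Pdlim3 at 13.5, 139 and 26.8 against 179.8, 47.2 and 15.1. Wild-type LE replicate 2 had the highest value of its group for 10 of the 14 members with 30 or more reads, and its sums were also highest for stromal (11142, against 622 and 3390), mesothelial (3274, against 110 and 1023) and pericyte markers (361, against 13.5 and 81.6). Median changes were -0.88 for members and -1.18, -1.55 and -1.34 for stromal, pericyte and endothelial markers, whose part in the LE results was not tested. Of 22 further smooth muscle genes, Prkg1 rose (3.87 ± 1.03, adjusted p = 0.041) and 0 fell. Itga8 had no read in either LE group, and the pericyte markers Rgs5 and Abcc9 were at 0 in E-OEX LE.

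U-OEx LE was compared with the same wild-type LE libraries, so the E-OEX and U-OEx contrasts in LE share their controls. Of 19 members tested, 2 were higher and 4 lower, where 56.9% of 5949 genes were called, 29.1% higher and 27.8% lower. Genes had been listed for their difference between GE and LE, which the wild-type LE libraries compared here helped to set. Cnn3 was listed as higher in wild-type LE than in GE, and the other members tested as lower. The values given for all genes are therefore not a matched background. Stromal, pericyte and endothelial markers had median changes of -1.53, -0.56 and -0.36, and members -0.16. Of single markers, 2 of 8 pericyte, 3 of 11 endothelial and 3 of 4 immune markers were called higher, against 0 lower in each of these lists. Of 14 stromal markers, 1 was called higher and 2 lower. The pericyte and endothelial counts lie near the 29.1% of all genes called higher. The 9 pericyte markers summed to 1523, 2509 and 1393 in U-OEx LE and to 409, 773 and 331 in wild-type LE. Notch3, itself a Notch receptor, made up most of both sums (1480.4, 2459.8 and 1282 against 396, 413 and 249), and the 8 others summed to 42.3, 48.9 and 110.5 against 13.5, 361 and 81.6. The part of those cells in the members' differences was not tested. Cnn3 showed the largest difference, at 936, 811 and 785 in U-OEx LE against 20306, 35600 and 33778, a fall of 5.13 ± 0.23 on the log2 scale (adjusted p = 5.48e-06) that held under all 12 alternatives. Smtn rose to 254, 402 and 276 (2.45 ± 0.58, adjusted p = 0.0077). Dtna, the dystrobrevin of the dystrophin complex, stood at 149.8, 166 and 235 against 69.4, 26.6 and 44.7 (1.9997 ± 0.45, adjusted p = 0.0062). Both kept their calls under all 12 alternatives. Myl9 fell by 3.001 ± 0.84 (adjusted p = 0.0161), with 0.92, 5.33 and 6.72 in U-OEx LE. Des stood at 2.76, 2.67 and 5.76 in U-OEx LE and fell by 2.83 ± 0.98 (adjusted p = 0.0384), although its groups overlapped, and Cnn1 fell by 2.14 ± 0.73 (adjusted p = 0.0347). The calls for Myl9, Des and Cnn1 were lost in 1, 5 and 7 of the 12 alternatives, and without U-OEx LE replicate 1 the count of called members was 3. Acta2 stood at 122, 149 and 73.0 against 83.9, 83.0 and 27.9, a difference of 0.89 (interval -0.34 to 2.12). Of 28 further smooth muscle genes tested, 6 were higher and 10 lower. The largest differences were Oxtr, the oxytocin receptor, which rose by 7.88 (adjusted p = 7.57e-05), Lims2, which fell by 6.92 (adjusted p = 9.76e-06), Hspb8, which fell by 3.09 (adjusted p = 7.59e-05), and Filip1l, which rose by 2.85 (adjusted p = 0.000226).

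**Figure D4:**
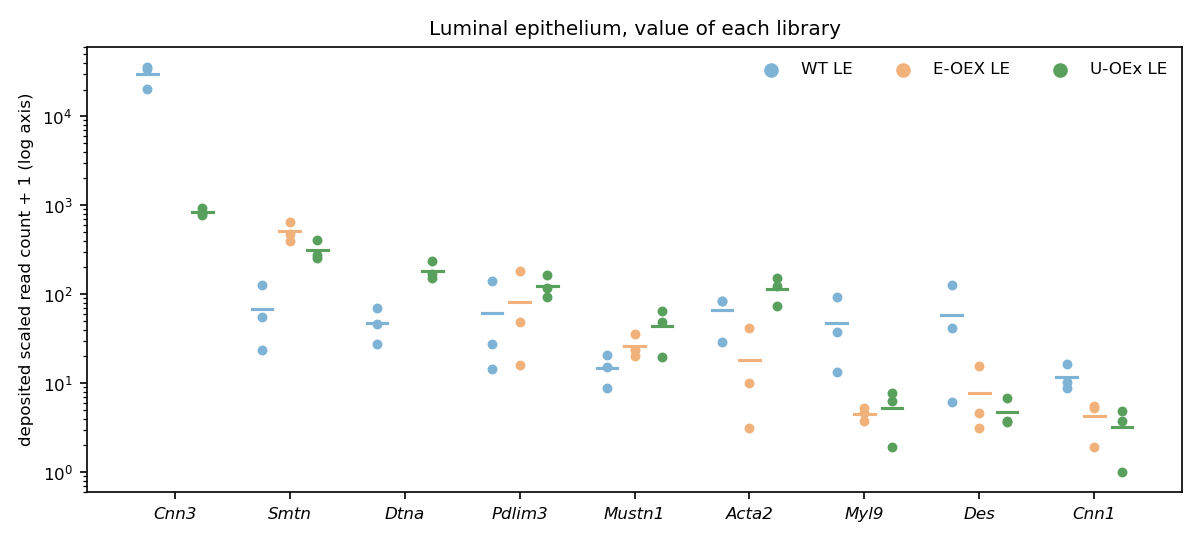
Scaled read counts plus 1 (log axis) in LE of 9 members, with a point for each of 3 libraries per group and a bar at the mean; Cnn3 and Dtna were not listed for E-OEX. Cnn3 lies far lower in U-OEx LE (785 to 936) than in wild-type LE (20306 to 35600), and Smtn lies higher in both overexpressing groups.

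Between the overexpressing genotypes, 1 of 23 members differed in LE, against 15% of 4275 genes, 6.97% higher and 8.05% lower. All 23 had been listed for E-OEX as lower in LE than in GE, which the E-OEX LE libraries helped to set. The shares of all genes are therefore not a matched background here either. Acta2 stood at 41.1, 9.08 and 2.16 in E-OEX LE and at 122, 149 and 73.0 in U-OEx LE (3.23 ± 0.85, adjusted p = 0.0368). Markers of other cells also differed: 5 of 6 pericyte markers (median 1.26), 7 of 9 endothelial markers (median 0.9957, 2 called) and 2 of 2 immune markers (median 1.89, 1 called) were above 0, and their part in the Acta2 difference was not tested. The Acta2 call was lost with a pseudocount of 0.1, with edgeR, and without any 1 of E-OEX LE replicates 2 and 3 and U-OEx LE replicates 1, 2 and 3. Csrp1 stood at 2024, 1903 and 1223 in E-OEX LE and 1020.03, 1289 and 884 in U-OEx LE (-0.81, interval -1.57 to -0.05, adjusted p = 0.131), and Lmod1 had 1 read in all of U-OEx LE against 16 in E-OEX LE. Of 24 further smooth muscle genes, Oxtr was higher in U-OEx LE (4.19) and Cav1 and Prkg1 lower (-3.64 and -2.24).

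The complete U-OEx tables allowed the members to be ordered by level per kilobase of exon in LE. Pdlim7 (552 ± 113, SD, n = 3), Flna (544 ± 25.6), Csrp1 (544 ± 105) and Actn1 (505 ± 53.3) stood highest and did not differ beyond their spread. Tpm1 (368 ± 32.8) and Cnn3 (278 ± 26.7) were next, each apart from its neighbours, and Vcl (87.5 ± 17.1), Smtn (70.8 ± 18.2) and Acta2 (52.3 ± 17.6) overlapped in turn. Flna, Actn1 and Vcl encode filamin, alpha-actinin and vinculin, which many non-muscle cells use, whereas Smtn and Acta2 encode proteins best known from smooth muscle. Other genes of differentiated muscle were near the bottom, with Myh11 at 1.04, Cnn1 at 0.80, Actg2 at 0.61, Jph2 at 0.42, Myocd at 0.25 and Lmod1 at 0.08, against a median of 19.99 for all genes with reads. Ldb3 (3.75) and Casq2 (3.599), which encode a Z-line and a calcium store protein, were also low. Synpo2, an actin-bundling protein of the Z-line, stood at 1.14 per kilobase here and at 84.6 in E-OEX GE, where its scaled read counts were 1242, 988 and 1094.

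**Figure D5:**
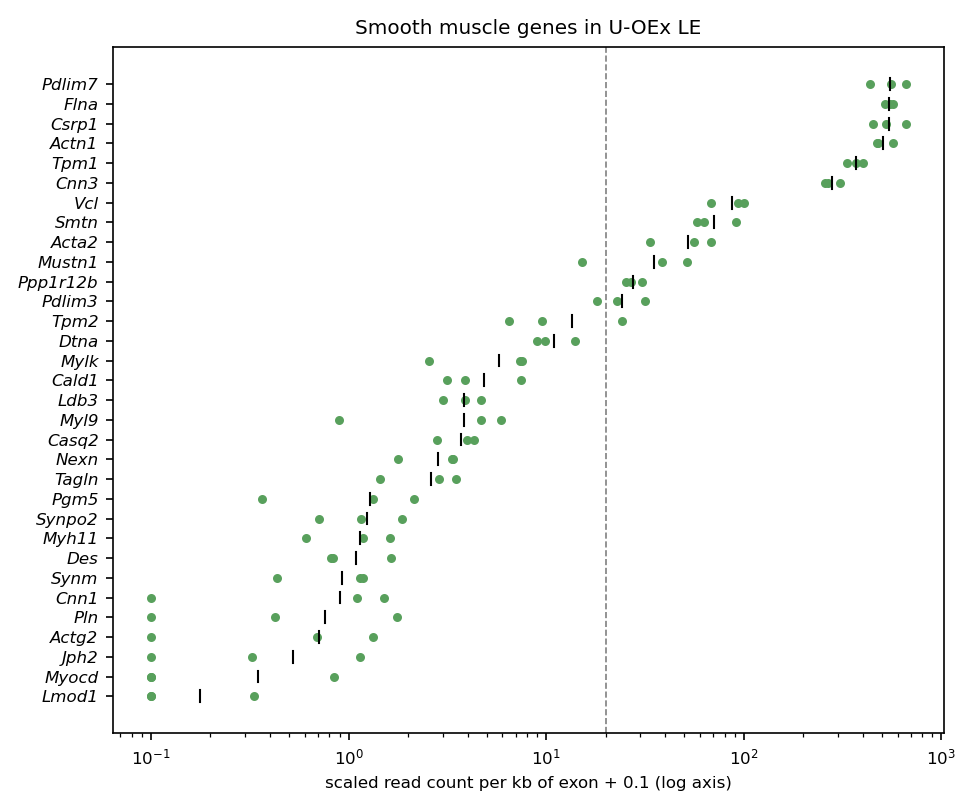
Scaled read count per kilobase of exon plus 0.1 (log axis) of 32 members in U-OEx LE, with a point for each of 3 libraries, a black bar at the mean and a dashed line at the median of all genes with reads (19.99). Pdlim7, Flna, Csrp1 and Actn1 lie highest (505 to 552), and Myh11 (1.04), Actg2 (0.61) and Lmod1 (0.08) lie far below the line.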

How the data were processed

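RNA-seq values of 15 libraries were used as deposited. The signal in the authors' deposited tables is a read count divided by 1 factor per library. Aligner, counter and scaling method are not given in the sources used here; the builds GRCm38 and mm10 are named in the submitters' processing notes. Dividing by each library's smallest step gave whole reads within 0.01 for 100% of values. Symbols, coordinates and exon lengths came from GENCODE M21 (GRCm38) and promoters from RefSeq. Groups and replicate numbers came from the sample titles.

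Comparisons used limma 3.58.1 (R 4.3.3, lmFit and eBayes with trend) on log2(value + 1), genes with a mean of at least 1, Benjamini-Hochberg adjustment over all genes tested and a threshold of 0.05. Folds on this scale understate low genes. Between genotypes, recovered reads of the shared genes were rescaled with edgeR 4.0.16 TMM; within a table set and for the interaction, deposited values were used. Alternatives were a pseudocount of 0.1, no filter, edgeR's quasi-likelihood test, a replicate block, quantile, TMM or deposited scaling, and leaving out each library. Intervals and floors cover counting error only where counts are used. Every member was described; of other lists, up to 4 called genes with the largest change were named by rule, and any others are given as named after their values were seen. Members and lists were chosen with earlier results of these data known. The procedure was checked on simulated data.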

Additional observations from a re-analysis of the deposited data

Results flagged for a closer look

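For 6 of 20 members the change between E-OEX and wild type differed between GE and LE by the interaction term itself (limma, adjusted over all genes). Of all 2933 genes, 5.83% were called positive and 4.91% negative, and all had been listed for their difference between GE and LE. The median interaction was 1.96 for members and 1.66, 2.27 and 1.78 for stromal, pericyte and endothelial markers. The part of those cell types was not tested. The log2 interaction, the change in GE less the change in LE, was 4.89 for Myl9 (adjusted p = 0.00227), 4.54 for Acta2 (0.0149), 3.93 for Cnn1 (0.00505), 3.73 for Myocd (0.0166), 3.37 for Jph2 (0.0314) and 2.81 for Myh11 (0.0487). In each the E-OEX mean was above the wild-type mean in GE and below it in LE. Acta2, Myl9 and Cnn1 kept their calls in all 18 alternatives, whereas Myocd lost its call in 2, Jph2 in 11 and Myh11 in 14. Myocd had no read in E-OEX LE and 7 reads in all of wild-type LE, and Jph2 had 3 and 7, so their LE change rests on very few reads and their interaction depends on the pseudocount.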

How the results depend on the processing

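The count of members called changed by more than 1.5 times with deposited scaling for E-OEX against wild-type LE (1), with a pseudocount of 0.1 for the interaction (3) and for U-OEx against E-OEX LE (0), and with edgeR for the last (0). Leaving out 1 library gave 20 to 22 members for GE against LE in wild type, 23 to 25 in E-OEX, 0 to 2 for E-OEX against wild type in LE, 9 to 15 in GE, 3 to 10 for the interaction, 3 to 7 for U-OEx against wild type and 0 to 1 for U-OEx against E-OEX. In GE, the uncalled change of Synm turned to -0.031 with quantile scaling and ran from -0.066 (without E-OEX GE replicate 3; -0.024 without replicate 2) to 0.27 when 1 library was left out, and that of Pln from -0.10 (without wild-type GE replicate 3) to 1.26. The cause was not tested. Same-numbered libraries did not deviate together (r from -0.28 to 0.19), so numbers were not taken as pairs. With the replicate block the counts were 22, 25, 2, 15, 5, 7 and 1 in the order above. Full depth of the wild-type and E-OEX libraries is not known, since their tables hold part of the genes, and genes with few reads in LE carry wide intervals.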
